A study of Rattus norvegicus with 16 samples.

Results

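The expression of 9 genes of enteric neurons, Vip, Tac1, Gal, Nos1, Elavl4, Ret, Uchl1, Prph and Stmn2, was examined in the stomach and the middle part of the intestine of suckling Wistar rats, which by the study's methods were the offspring of Wistar Han animals. The genes were taken as every probe whose gene name in the array files equals one of these symbols, which gave 15 of the 30367 probes of the array and 9 of its 19776 named genes. Of these 15 probes, 14 were kept for testing, among 21174 kept in all, because they were well above background on all 4 arrays of at least 1 group. The probe left out, A_44_P480153 of Ret, had a Cy5 signal too close to background on all 16 arrays. A probe that was kept only through a group in which it was bright had to be brighter there, and this touches both probes of Nos1.

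The C rats were given saline solution and the OH rats 250 nmol/kg BW of obestatin, a peptide that is cut from the precursor of ghrelin. Dosing was enteral, 2 times daily, began on day 14 of life and ended on day 21, when the animals were euthanised, so every rat was of the same strain and age and had been handled in the same way. The stomach and the middle intestine of both treatments made 4 groups, and total RNA of each was hybridized on 4 two-colour Agilent arrays, with the tissue of 1 rat in Cy5 and, in Cy3, a common reference pooled from the RNA of every rat. The litter of each rat was not given, nor was which stomach and intestine came from the same animal, so p-values measure the spread between these samples. The study's methods give 4 litters for each treatment, so litters lie within treatments and rats of 1 group may be littermates. The 4 groups were on 4 slides, 1 group a slide, and the C slides were scanned on a different day from the OH slides, which means that treatment cannot be told apart from slide or scan day, nor tissue from slide. The values below are log2 ratios of the processed Cy5 to the processed Cy3 signal, so 0 means equal signal in both channels. The samples were always in Cy5, so at a single probe a dye difference cannot be told apart from a difference from the pool. A difference between groups is always the first named group minus the second.

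The enteric nervous system is a network of neurons and glia in 2 layers of the gut wall, the myenteric plexus between the muscle coats and the submucosal plexus under the mucosa. Its neurons arise from neural crest cells that enter the foregut and migrate along the bowel, and the receptor tyrosine kinase Ret, which binds the GDNF family of ligands, is required for this colonisation. Inhibitory motor neurons relax the muscle with nitric oxide made by Nos1, the neuronal nitric oxide synthase, and with vasoactive intestinal peptide, encoded by Vip. Excitatory motor neurons use tachykinins such as substance P, encoded by Tac1, and secretomotor neurons of the submucosa carry Vip and often galanin, encoded by Gal. Elavl4 encodes the RNA-binding protein HuD, Uchl1 the ubiquitin hydrolase PGP9.5, Prph the intermediate filament peripherin and Stmn2 the growth cone protein SCG10, all of which are used as general neuronal markers. In total RNA of a tissue, fewer cells of a type and less RNA per cell cannot be told apart.

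Probes of Tac1, Gal, Nos1, Prph and Stmn2 that lie in protein-coding sequence are given as printed on the array, 60 bases each, in the sense direction of the transcript and with rn4 positions from the array design, because these genes differed between the tissues. For Tac1 and Gal the probe shown is the dimmer of the pair, and their main values below come from the brighter one, which is given by position. The capitals in the Tac1 probe mark the codons for a glycine followed by a pair of basic residues, the signal at which the precursor is cut and amidated, and the capitals in the Prph probe mark the stop codon. The Nos1 pair is shown because the probes are 4100 bases apart and gave the same direction in both tissue comparisons. Both were kept only through the stomach arrays, so this shared direction is no support.
Tac1 A_64_P009996, chr4:32651286-32651345, plus strand: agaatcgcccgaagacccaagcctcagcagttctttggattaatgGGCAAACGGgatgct
Gal A_64_P091940, chr1:205937849-205937908, minus strand: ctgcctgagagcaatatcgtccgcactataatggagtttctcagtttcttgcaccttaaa
Nos1 A_44_P473047, chr12:39810923-39810982, minus strand: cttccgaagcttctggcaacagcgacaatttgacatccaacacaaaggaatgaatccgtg
Nos1 A_64_P105620, chr12:39815023-39815082, minus strand: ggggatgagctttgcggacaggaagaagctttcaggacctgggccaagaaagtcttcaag
Prph A_64_P139802, chr7:137839568-137839627, plus strand: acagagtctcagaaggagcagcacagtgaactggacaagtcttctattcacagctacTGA
Stmn2 A_64_P127855, chr2:95290726-95290785, minus strand: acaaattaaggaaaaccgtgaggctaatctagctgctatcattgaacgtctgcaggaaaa

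The other probes are given by position only. The Vip probe A_64_P096924 was at chr1:36369494-36369553 on the plus strand, the second Tac1 probe A_64_P009999 at chr4:32657551-32657610 and the second Gal probe A_42_P614175 at chr1:205936430-205936489. Elavl4 was read by A_64_P011854 at chr5:131672015-131672074 and Uchl1 by A_64_P073038 at chr14:44114392-44114451, both on the minus strand. The kept Ret probes, A_64_P154019 and A_64_P154024, lay at chr4:154448663-154448722 and chr4:154450996-154451055, 2333 bases apart, and the second Stmn2 probe A_44_P496061 at chr2:95285271-95285330. Pairs of probes of the same gene moved together over the 16 arrays, with Pearson's r of 0.999 for Gal, 0.98 for Tac1 and Stmn2 and 0.92 for Nos1, but only 0.56 for Ret. This r is a description across arrays that share a reference pool and, within a group, a slide.

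The tissue labels were borne out by markers of the mucosa. The mean log2 ratio of 9 stomach mucosa genes was between 2.27 and 3.59 on the stomach arrays and between -4.23 and -3.60 on the intestine arrays, and that of 10 enterocyte genes was between -3.70 and -3.39 and between -1.33 and 1.12, respectively. Muscle, in which the myenteric plexus lies, was less even. Over 11 smooth muscle genes, the mean was between -2.51 and -1.27 in C stomach but ran from -2.50 to 0.96 in OH stomach, with 0.96 in replicate 1 and 0.23 in replicate 4, and it was between -1.15 and -0.23 in C middle intestine and between -0.83 and -0.06 in OH middle intestine. Over 12 striated muscle genes, the mean was -1.05 in C stomach replicate 2 and between 3.07 and 3.74 on the other C stomach arrays, against -0.42 to 0.87 in OH stomach and -0.87 to -0.66 in the intestine. Over 8 pancreas genes, the mean was -1.41 in OH middle intestine replicate 4 and between -3.77 and -3.12 on the other intestine arrays. The median raw Cy3 signal of the reference was between 188 and 195 scanner units on C arrays and between 341 and 399 on OH arrays.

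In the saline-treated rats, 8 of the 9 genes differed between stomach and middle intestine when each was read by its brightest probe. Transcripts of Gal, Vip, Tac1, Elavl4, Uchl1, Prph and Stmn2 were lower in stomach, by 1.91-fold to 7.12-fold, and Nos1 was higher in stomach. Both Nos1 probes were kept only through the stomach arrays, so their calls support nothing, and without Nos1 7 of 8 genes passed, all lower, with a median difference of -1.12. Over the probes, Nos1 included, 12 of 14 passed an adjusted p of 0.05 in limma, 10 lower and 2 higher in stomach, where 44.9% of all 21174 probes passed, 22.3% lower and 22.7% higher. The median difference of the 14 probes was -1.05, and that of all probes was -0.01. The arrays of the tissues did not overlap at 10 of the 14 probes, 8 below and 2 above in stomach, against 43.7% of all probes, 22.1% below and 21.6% above. The smooth muscle mean was likewise lower on every C stomach array, at -1.27 or less, than on any C middle intestine array, at -1.15 or more, and its part in these differences was not tested.

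**Figure D1:**
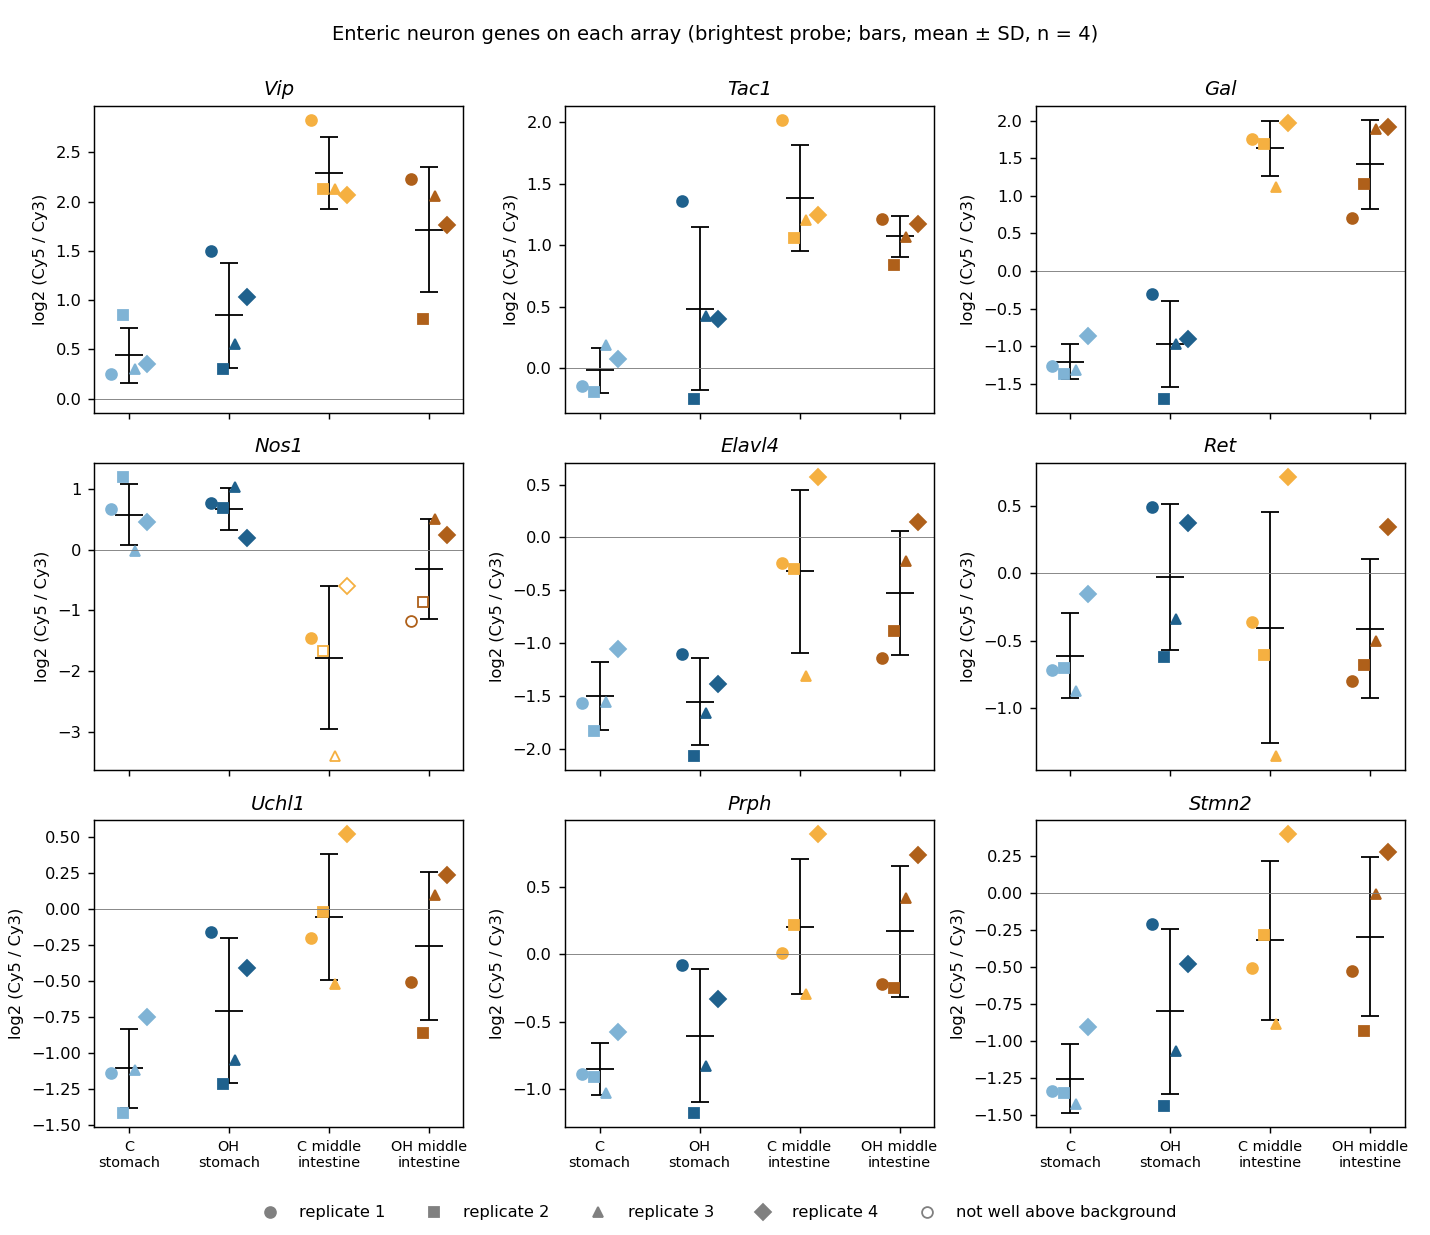
Log2 ratio to the common reference (vertical axis) of each gene's brightest probe on every array of the 4 groups. Points are single arrays, open points are arrays on which the probe was not well above background in Cy5, and bars show the mean and SD of 4 arrays. Gal lies between -1.69 and -0.30 in stomach and between 0.70 and 1.97 in intestine, while Nos1 is the gene with its stomach arrays above its intestine arrays in the C group.

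Gal, whose peptide acts on secretion and motility, had the largest tissue difference of the 9 genes in the C group. The log2 ratios of A_42_P614175 were -1.26, -1.37, -1.32 and -0.86 in C stomach and 1.75, 1.69, 1.11 and 1.97 in C middle intestine. In the OH group they were -0.30, -1.69, -0.97 and -0.90 in stomach and 0.70, 1.16, 1.89 and 1.92 in middle intestine. All 8 stomach arrays lay below all 8 intestine arrays, and OH stomach replicate 1 was the highest of the stomach arrays. The difference was -2.83 (SE 0.31), or 7.12-fold, in the C group (adjusted p = 4.3e-06) and -2.39 (SE 0.31), or 5.22-fold, in the OH group (adjusted p = 2.5e-05). The second probe gave -2.74 and -2.37. From high to low the group means were 1.63 ± 0.36 (SD, n = 4) in C middle intestine, 1.42 ± 0.59 in OH middle intestine, -0.97 ± 0.57 in OH stomach and -1.20 ± 0.23 in C stomach, and the neighbours of the same tissue overlapped.

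Vip, the peptide of inhibitory motor and secretomotor neurons, had a log2 ratio to the reference above 0 on all 16 arrays. Its log2 ratios were 0.25, 0.85, 0.30 and 0.36 in C stomach and 2.83, 2.13, 2.12 and 2.06 in C middle intestine. In the OH group they were 1.50, 0.30, 0.55 and 1.03 in stomach and 2.22, 0.81, 2.06 and 1.76 in middle intestine. The C arrays of the tissues were well apart, whereas in the OH group the stomach replicates 1 and 4 exceeded the intestine replicate 2. The difference was -1.85 (SE 0.31), or 3.60-fold, in the C group (adjusted p = 0.00025) and -0.87 (SE 0.31), or 1.83-fold, in the OH group (adjusted p = 0.0386). The call in the OH group was lost without any of 6 arrays, namely OH stomach replicates 2, 3 and 4 and OH middle intestine replicates 1, 3 and 4, with adjusted p up to 0.12. Its group means were 2.29 ± 0.36 (SD, n = 4) in C middle intestine, 1.71 ± 0.63 in OH middle intestine, 0.84 ± 0.53 in OH stomach and 0.44 ± 0.28 in C stomach, each neighbour overlapping the next.

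Tac1, the tachykinin precursor of excitatory motor neurons, followed the same order. The ratios of A_64_P009999 were -0.14, -0.20, 0.19 and 0.08 in C stomach and 2.02, 1.06, 1.21 and 1.25 in C middle intestine. They were 1.36, -0.25, 0.42 and 0.40 in OH stomach and 1.22, 0.84, 1.07 and 1.17 in OH middle intestine. The C groups did not overlap, but OH stomach replicate 1 was above every OH middle intestine array while the other OH stomach arrays were below them. The difference was -1.40 (SE 0.27), or 2.64-fold, in the C group (adjusted p = 0.000861) and -0.59 (SE 0.27) in the OH group, which did not pass (adjusted p = 0.106). Without OH stomach replicate 1 the OH difference was -0.88 and passed (adjusted p = 0.0074). The printed coding probe, 6265 bases away, gave -1.12 (SE 0.24, adjusted p = 0.00148) and -0.49 (SE 0.24, adjusted p = 0.12).

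Nos1, the synthase of nitric oxide, went the other way, and its signals were dim. In stomach, A_64_P105620 was well above background on all 8 arrays, with ratios of 0.66, 1.19, -0.02 and 0.46 in C and 0.77, 0.68, 1.03 and 0.19 in OH. In middle intestine it was well above background on 1 of 4 C arrays and 2 of 4 OH arrays, with ratios of -1.45, -1.67, -3.40 and -0.60 in C and -1.18, -0.86, 0.50 and 0.24 in OH. The C groups did not overlap, and C middle intestine replicate 3 was far the lowest. The fitted difference was 2.35 (SE 0.51) in the C group (adjusted p = 0.00174), a value that rests on 1 C intestine array above background, and 0.99 (SE 0.51) in the OH group, which did not pass (adjusted p = 0.139). A_44_P473047 was not well above background on any intestine array and gives no measured level there. The processed Cy5 signal of A_44_P473047 was higher in C stomach by 1.24 on the log2 scale. After the channels were normalized between arrays it was 2.82-fold higher there, the ratio of the normalized signals and not a lower bound. In OH stomach it was 3.01-fold higher after the dimmest intestine signals were raised to the lowest signal well above background. The limma fit of its ratios to the reference had an adjusted p of 0.00412 in C and 0.00817 in OH. In the C comparison the Cy3 reference at A_64_P105620 was also lower on the stomach arrays, by -1.07 on the log2 scale, while Cy5 was higher by 1.28. With another background correction, normexp with an offset of 50 followed by loess, the difference of A_64_P105620 shrank to 0.64 in C (adjusted p = 0.00104) and 0.34 in OH (adjusted p = 0.0474). An offset added to both channels shrinks the ratios of dim probes by construction. Without C middle intestine replicate 3 the main fit gave 1.81 in C (adjusted p = 0.00322).

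The general neuronal markers were lower in stomach by smaller amounts than Gal in the C group. Uchl1 had ratios of -1.14, -1.42, -1.12 and -0.75 in C stomach and -0.20, -0.02, -0.52 and 0.52 in C middle intestine. Prph had ratios of -0.89, -0.91, -1.03 and -0.57 in C stomach and 0.01, 0.22, -0.29 and 0.89 in C middle intestine. Neither gene overlapped between the tissues in the C group, and in both the highest array of each tissue was replicate 4. The difference was -1.05 (SE 0.29, adjusted p = 0.00964) for Uchl1 and -1.06 (SE 0.29, adjusted p = 0.00881) for Prph, about the same size. The call of Uchl1 was lost in the procedure of the study's methods, an adjusted test across the groups followed by Tukey's HSD. Tukey's HSD itself gave Uchl1 an unadjusted p of 0.0259, so the loss came from the adjusted step. In the OH group the ratios of Uchl1 were -0.16, -1.21, -1.05 and -0.41 in stomach and -0.50, -0.86, 0.10 and 0.24 in middle intestine, and those of Prph were -0.08, -1.18, -0.83 and -0.33 and -0.22, -0.25, 0.42 and 0.74. The tissues overlapped for both. The difference was -0.45 for Uchl1 (SE 0.29, adjusted p = 0.248), which did not pass, and -0.78 for Prph (SE 0.29, adjusted p = 0.0476), a call that was lost in 11 of the 16 fits that left out 1 array, namely any C stomach array, OH stomach replicates 2, 3 and 4, C middle intestine replicates 1 and 2 and OH middle intestine replicates 3 and 4, with adjusted p up to 0.149.

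Stmn2, which regulates microtubules in growing neurites, had ratios at A_64_P127855 of -1.34, -1.36, -1.43 and -0.91 in C stomach and -0.51, -0.29, -0.89 and 0.40 in C middle intestine. In the OH group they were -0.21, -1.44, -1.07 and -0.48 in stomach and -0.53, -0.93, -0.01 and 0.28 in middle intestine. The C groups were separated by a narrow gap and the OH groups overlapped. The difference was -0.94 (SE 0.32), or 1.91-fold, in the C group (adjusted p = 0.0278) and -0.50 (SE 0.32, adjusted p = 0.236) in the OH group. The call in the C group was lost without any of C stomach replicates 1, 2 and 3 and C middle intestine replicates 2 and 4, with adjusted p up to 0.0898, and it was also lost under Tukey's HSD. The second probe, at -0.81 (SE 0.34, adjusted p = 0.0624), did not pass in the C group.

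Elavl4, the RNA-binding protein of differentiating neurons, had ratios of -1.57, -1.83, -1.55 and -1.06 in C stomach and -0.24, -0.29, -1.31 and 0.57 in C middle intestine. In the OH group they were -1.10, -2.07, -1.66 and -1.39 in stomach and -1.14, -0.88, -0.23 and 0.14 in middle intestine. In each treatment 1 stomach array reached into the range of the intestine arrays. The difference was -1.19 (SE 0.36), or 2.28-fold, in the C group (adjusted p = 0.0155) and -1.03 (SE 0.36), or 2.04-fold, in the OH group (adjusted p = 0.0362). Without C middle intestine replicate 4 the first was -0.89 and did not pass (adjusted p = 0.0519), and the second did not pass without any of OH stomach replicates 2, 3 and 4 and OH middle intestine replicates 3 and 4, with adjusted p up to 0.112.

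Ret, the receptor of migrating precursors, was the gene whose brightest probe did not differ between the tissues in either treatment. The ratios of A_64_P154019 were -0.71, -0.71, -0.88 and -0.16 in C stomach, -0.37, -0.61, -1.36 and 0.71 in C middle intestine, 0.49, -0.62, -0.34 and 0.37 in OH stomach and -0.80, -0.68, -0.50 and 0.34 in OH middle intestine. All 4 groups overlapped, and the spread in C middle intestine was the widest of the 4. The difference was -0.21 in the C group (95% confidence interval -1.03 to 0.62, adjusted p = 0.684) and 0.38 in the OH group (-0.44 to 1.21, adjusted p = 0.461). The other kept probe, A_64_P154024, passed in the C group at -0.66 (SE 0.23, adjusted p = 0.0273) although its arrays overlapped, and it did not pass in the OH group at -0.12 (SE 0.23, adjusted p = 0.722). That call was lost without any of C stomach replicates 1, 2 and 3 and C middle intestine replicates 2 and 4, with adjusted p up to 0.0849.

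In the obestatin-treated rats, 6 of the 14 probes passed between the tissues, 5 lower and 1 higher in stomach, where 38.2% of all probes passed, 19.1% lower and 19.2% higher. These were both probes of Gal and those of Vip, Elavl4 and Prph, all lower, and A_44_P473047 of Nos1, higher. The Nos1 probe was kept only through the stomach arrays, so its call and its lack of overlap support nothing. Without Nos1 and with 1 probe a gene, 4 of 8 genes passed, all lower, with a median difference of -0.68. Arrays did not overlap at 3 probes, both of Gal below and A_44_P473047 of Nos1 above, against 35.2% of all probes, 17.7% below and 17.6% above. The median difference of the 14 probes was -0.49, and that of all probes was 0.01. The count of 6 fell to 3 without any of OH stomach replicates 2, 3 and 4 and OH middle intestine replicates 3 and 4, and it was 8 at most when 1 array was left out. Of 17 other settings, 4 ended the OH call of Vip, 6 that of Prph and 2 that of Elavl4, with adjusted p up to 0.0977, 0.158 and 0.117. Within OH stomach the smooth muscle mean was 0.96 and 0.23 in replicates 1 and 4 and -1.28 and -2.50 in replicates 2 and 3, and the mean of the 8 genes other than Nos1 was 0.19 and -0.21 against -1.02 and -0.62 on the same arrays, so both were higher in replicates 1 and 4. The part of muscle in the result was not tested.

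**Figure D2:**
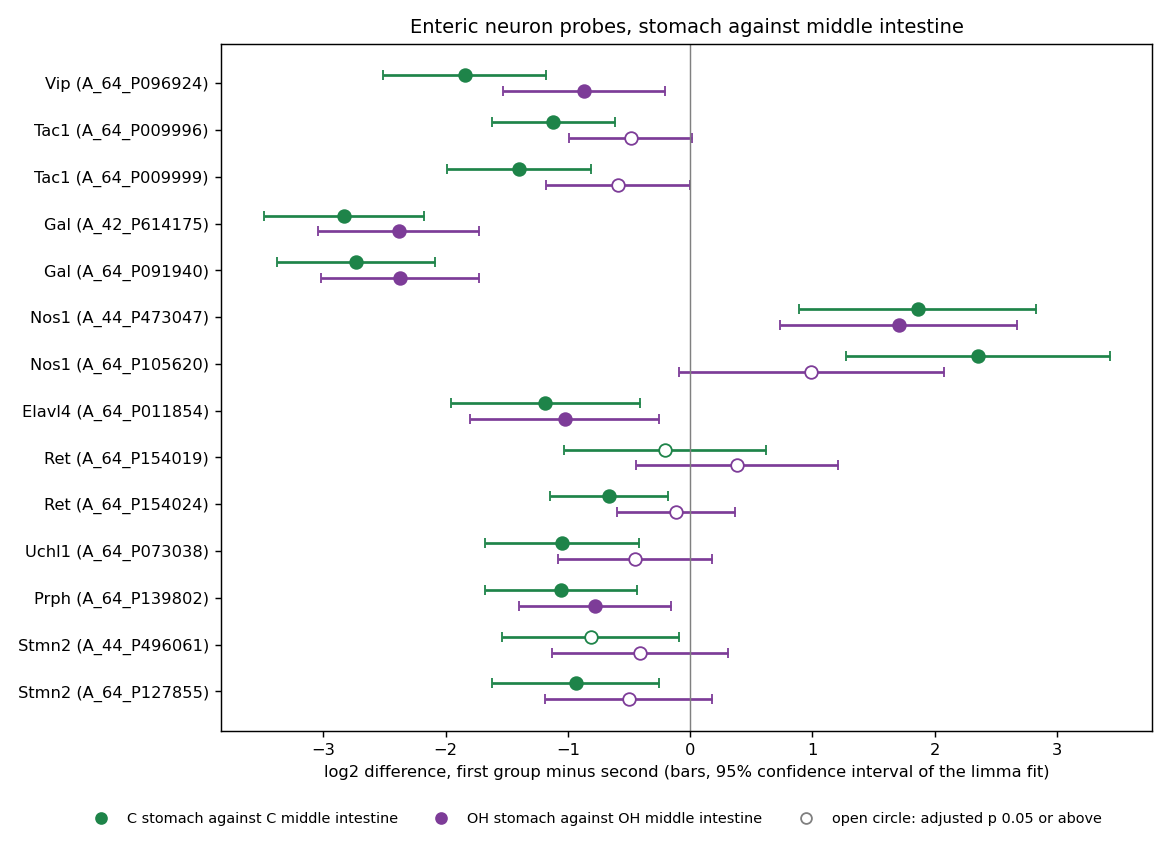
Stomach minus middle intestine as a log2 difference (horizontal axis) for each of the 14 kept probes, in the C and in the OH group. Points are limma estimates with 95% confidence intervals, filled where the adjusted p was under 0.05. Gal lies at -2.83 and -2.74 in the C group and Nos1 A_64_P105620 at 2.35, while the points of Nos1 A_44_P473047 rest on intestine signals that were not well above background. Most other probes lie nearer 0 in the OH group than in the C group.

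Between OH and C, 0 of the 14 probes passed in either tissue. In stomach 13 of the 14 differences were positive, from -0.05 for Elavl4 to 0.59 for Ret, with a median of 0.40 against 0.01 for all probes. By limma, 0 probes passed the adjusted threshold in this comparison, where the share of all probes was 0%, and 0 of the 14 passed an unadjusted p of 0.05, against 10.6% of all probes. The smallest unadjusted p was 0.0707, for Tac1 A_64_P009996 at 0.46 (95% confidence interval -0.04 to 0.96). C and OH arrays overlapped at all 14 probes, where 7.6% of all probes did not overlap. The Cy3 signal of the reference itself differed between OH and C arrays at these probes by -0.02 to 0.63 on the log2 scale, and the Cy5 signal by 0.08 to 1.21. On quantile-normalized Cy5 alone, without the reference, the difference of Nos1 turned from 0.09 to -0.16 and that of Elavl4 from -0.05 to 0.12.

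In middle intestine, 4 of the 14 differences between OH and C were positive and 10 negative, with a median of -0.14 against 0.00113 for all probes. Of all probes, 0.368% passed the adjusted threshold here. Vip had the most negative difference, -0.57 (95% confidence interval -1.23 to 0.09, adjusted p = 0.581), with OH replicate 2 at 0.81 and the other OH arrays at 1.76 or more. Nos1 A_64_P105620 had the most positive, 1.45 (0.37 to 2.54), and its limma p was 0.0119 before and 0.274 after adjustment. It was the single probe of the 14 under an unadjusted p of 0.05, as were 10.5% of all probes. For this probe the Cy5 signal differed by 0.18 and the Cy3 reference by -1.27 on the log2 scale, and only 3 of the 8 intestine arrays were well above background. Groups overlapped at all 14 probes, where 5.86% of all probes did not overlap. The signs of small differences depended on the scaling: with Cy5 alone Ret turned from -0.01 to 0.64, Uchl1 from -0.20 to 0.01 and Stmn2 from 0.02 to -0.19.

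**Figure D3:**
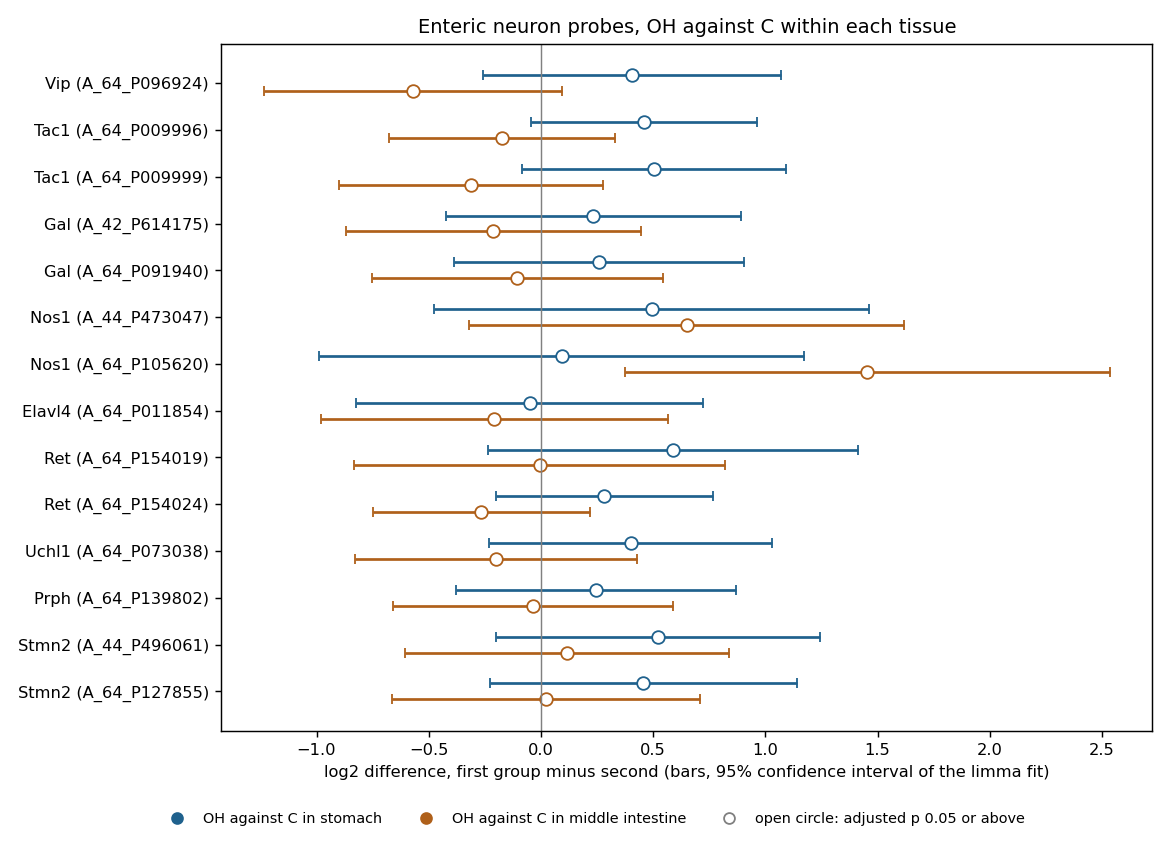
OH minus C as a log2 difference (horizontal axis) for each of the 14 kept probes, in stomach and in middle intestine. Points are limma estimates with 95% confidence intervals, open because no probe had an adjusted p under 0.05. In stomach 13 of 14 points are above 0 and in middle intestine 4 of 14.

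The difference between the tissues in the response to obestatin was tested directly. The stomach response minus the intestine response was positive for 12 of the 14 probes, and 0 passed the adjusted threshold in limma, as did 0% of all probes. Vip had the most positive value, 0.98 (SE 0.44, unadjusted p = 0.0428, adjusted p = 0.836), and was the single probe under an unadjusted p of 0.05, against 5.85% of all probes. Nos1 A_64_P105620 had the most negative, -1.36 (SE 0.72, adjusted p = 0.838). Tac1 A_64_P009999 had 0.81 (SE 0.39, adjusted p = 0.836). The smaller tissue differences of Vip and Tac1 in the OH group than in the C group are therefore not shown to differ.

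Within groups, the genes varied together from array to array. After the group mean was taken from each gene, the correlation between genes over the 16 arrays was positive for all 36 pairs, with a median r of 0.62. Among Elavl4, Ret, Uchl1, Prph and Stmn2 the 10 pairs had r between 0.86 and 0.99, the highest being Prph with Stmn2, and Vip with Tac1 had 0.70. The 8 pairs with Nos1 had r between 0.05 and 0.72. These are descriptions, because the genes of 1 array share its RNA, labelling and normalization. In OH stomach, replicate 1 was the highest array for 8 of the 9 genes and replicate 2 the lowest for 8. In C middle intestine, replicate 4 was the highest for 7 and replicate 3 the lowest for 7. The mean of the 8 genes other than Nos1 had a range of -1.02 to 0.19 over the OH stomach arrays and of -0.87 to -0.48 over the C stomach arrays. In middle intestine the range was -0.10 to 0.82 for OH and 0.01 to 1.05 for C.

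**Figure D4:**
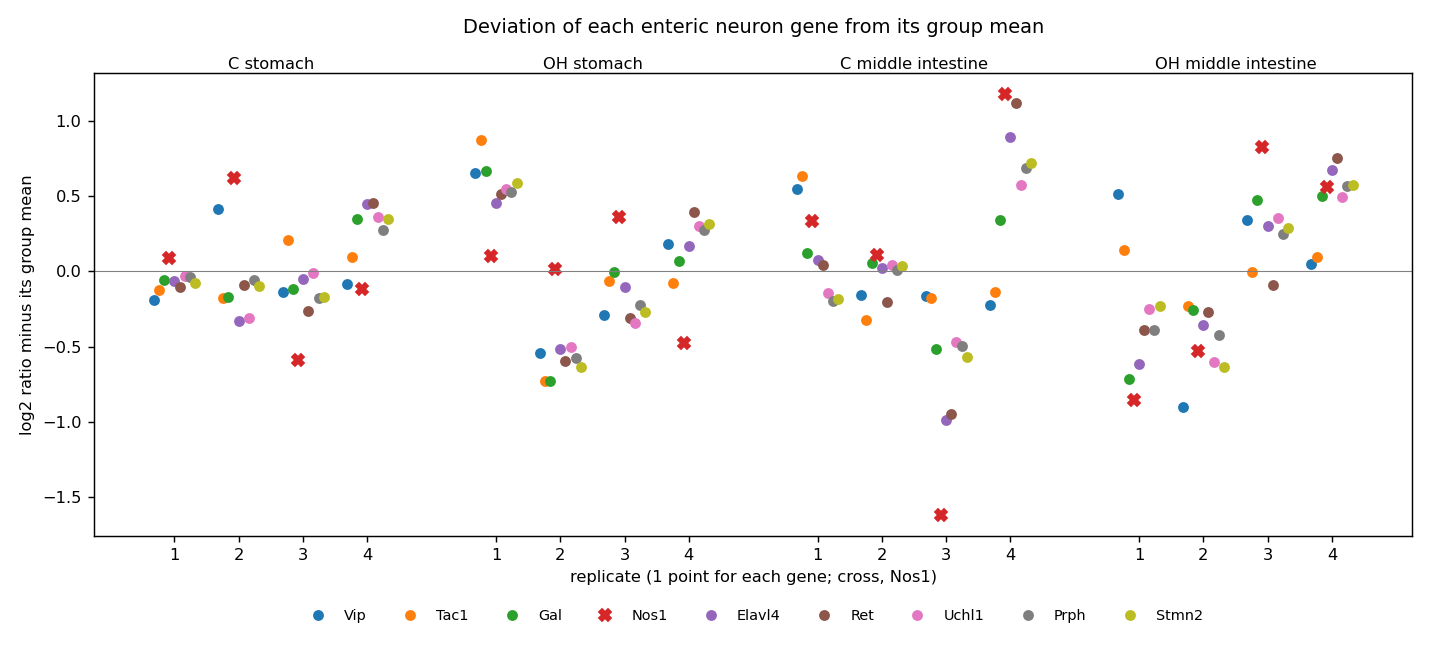
Deviation of each gene's log2 ratio from its group mean (vertical axis) on each of the 16 arrays (horizontal axis), for the brightest probe of the 9 genes. OH stomach replicate 1 lies above 0 for all 9 genes and OH stomach replicate 2 below 0 for the 8 genes other than Nos1.

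Other genes shared this pattern. Of 13183 genes compared, those whose ratios over the 16 arrays were most like the mean of the 9 genes were Ctnna2 and Rufy3, both at r = 0.98, Gap43 and Zwint, both at 0.97, and Jph3 at 0.96. For deviations from the group means they were Ctnna2 at 0.98, Snap25 at 0.97 and Dnajc6, Gnao1 and Rufy3 at 0.96. Gap43 is a growth cone protein and Snap25 a part of the synaptic vesicle fusion machinery. The deviations of the mean over each list of marker genes had an r with those of the 9 genes of 0.95 for other pan-neuronal genes, 0.89 for markers of interstitial cells of Cajal, 0.59 for smooth muscle and glia, 0.20 for striated muscle, 0.05 for pancreas and -0.59 for enterocytes.

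**Figure D5:**
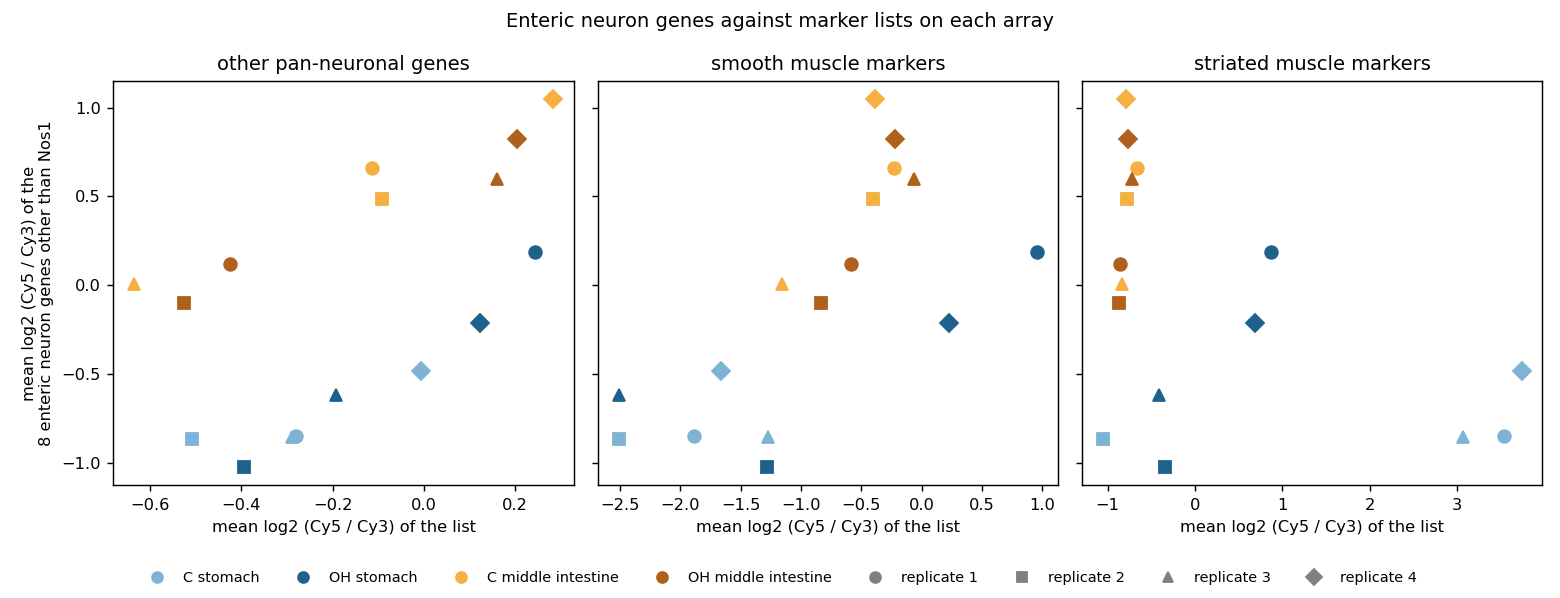
Mean log2 ratio of the 8 genes other than Nos1 (vertical axis) against the mean log2 ratio of other pan-neuronal genes, smooth muscle markers or striated muscle markers (horizontal axes), with 1 point for each of the 16 arrays, colours for the groups and shapes for the replicates. In OH stomach, replicate 1 is the highest array on both axes for the smooth muscle list, at 0.96 and 0.19, and in C stomach replicate 2 stands apart from the other arrays on the striated muscle axis, at -1.05, but not on the vertical axis, at -0.87.

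Other pan-neuronal genes differed between the tissues in both directions. Of 23 kept genes, 2 were higher and 6 lower in C stomach, with a median difference of -0.28, where 22.7% of all probes were higher and 22.3% lower. In OH stomach 3 were higher and 2 lower, with a median of -0.02, where 19.2% of all probes were higher and 19.1% lower, and the lists that follow are to be read against the same shares. The neurofilament Nefm was lower in stomach, at -1.62 in C (SE 0.33, adjusted p = 0.00113) and -1.14 in OH (adjusted p = 0.0131). The calcium sensor Vsnl1 was higher in C stomach, with a fitted ratio difference of 2.51 (adjusted p = 1.76e-05). It was not well above background on any C middle intestine array and was kept only through stomach arrays, so its call, which is among those counted, supports nothing. In the Cy5 channel alone, normalized between arrays, Vsnl1 was 6.82-fold higher in C stomach, the ratio of the normalized signals and not a lower bound. Of 9 glia markers, 2 were lower and 0 higher in stomach in each treatment, among them the neurotrophin receptor Ngfr at -1.16 in C (adjusted p = 0.00365), so the share lower was near that of all probes. Of 4 markers of interstitial cells of Cajal, the pacemaker cells that lie beside the neurons, 1 was higher and 1 lower in stomach in each treatment, the chloride channel Ano1 at 1.50 in C (adjusted p = 5.71e-05) and Thbs4 at -2.70 (adjusted p = 0.000114). Of the muscle genes, 4 of 11 smooth muscle genes were lower and 9 of 12 striated muscle genes higher in C stomach. In OH stomach these counts were 0 of 11 and 2 of 12. On the C middle intestine arrays 9 of the 12 striated muscle genes were well above background. Myh1 and Tnnt3 were not so on any of these arrays and were kept only through stomach arrays. Their C calls, which are among those counted, therefore support nothing. The mean of the pan-neuronal list was between -0.51 and -0.01 in C stomach and between -0.63 and 0.28 in C middle intestine.

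Other transmitter genes of the gut did not share 1 direction. Of 18 kept genes, 6 were higher and 3 lower in C stomach, and 7 were higher and 3 lower in OH stomach, with medians of 0.39 and 0.63, against 22.7% higher and 22.3% lower of all probes in C and 19.2% and 19.1% in OH. On the intestine arrays 15 or 16 of the 18 were well above background, against 17 or 18 on the stomach arrays. A gene kept only through stomach arrays had to be brighter there, so the counts of genes higher are not free of the filter. The peptide precursors Nts and Nmu were lower in C stomach, with log2 differences of -7.17 and -4.05 (adjusted p = 2.58e-08 and 2.27e-08), and Nts was well above background on only some stomach arrays. The filter may have kept Nts only through the intestine arrays, so its call, which is among those counted, is not taken as support. Calca, the precursor of calcitonin and of a sensory neuropeptide, had a fitted ratio difference of 4.04 in C (adjusted p = 5.24e-07) and was not well above background on any intestine array. It was kept only through the stomach arrays, so its call, which is among those counted, supports nothing. In the Cy5 channel alone it was at least 29.3-fold higher in C stomach. The vesicular monoamine transporter Slc18a2 was higher in C stomach by 2.82 (adjusted p = 4.78e-06). Nts is also known in endocrine cells of the intestine, and Slc18a2 in histamine-storing cells of the stomach.

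Most receptors and effectors of the same transmitters were lower in stomach in the C group. Of 10 kept genes, 8 were lower and 0 higher there, with a median difference of -2.21, where 22.3% of all probes were lower and 22.7% higher. In the OH group 3 were lower and 0 higher, with a median of -1.05, against 19.1% and 19.2% of all probes. Vipr1, a receptor of vasoactive intestinal peptide, had a difference of -6.50 (SE 0.15, adjusted p = 6.38e-13) in C and -6.29 (SE 0.15, adjusted p = 1.29e-12) in OH. The substance P receptor Tacr1 differed by -2.24 in C (adjusted p = 1.92e-05) and -1.27 in OH (adjusted p = 0.00256), and the galanin receptor Galr1 by -2.34 (adjusted p = 0.00577) and -2.85 (adjusted p = 0.00175), although Galr1 was not well above background on every stomach array. The filter may have kept Galr1 only through the intestine arrays, so its calls, which are among those counted, are not taken as support. On the stomach arrays 8 to 10 of the 10 genes were well above background, against 10 on the intestine arrays. Tacr3 and Gucy1b3, a subunit of the nitric oxide receptor guanylyl cyclase, passed in C at -3.03 (adjusted p = 0.00373) and -2.28 (adjusted p = 0.00418), but not in OH at -1.67 (adjusted p = 0.0832) and -1.20 (adjusted p = 0.105). Between OH and C, 0 of the 10 passed in either tissue, with 9 of 10 positive in stomach, and the 11 smooth muscle genes had 10 of 11 positive there at a median of 1.39, with 0 passing.

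Most genes of enteric nervous system development that differed between the tissues were lower in stomach. Of 19 kept genes, 10 were lower and 1 higher in C stomach, where 22.3% of all probes were lower and 22.7% higher. In OH stomach 5 were lower and 1 higher, a share lower that was nearer the 19.1% of all probes. The transcription factor Tlx2 differed by -2.62 in C (SE 0.27, adjusted p = 2.6e-06) and -2.33 in OH (adjusted p = 9.15e-06). The Ret ligand Gdnf differed by -2.74 in C (SE 0.62, adjusted p = 0.00259), and by -1.19 in OH, which did not pass (adjusted p = 0.147). The endothelin receptor Ednrb and the transcription factor Zeb2 passed in C at -1.49 (adjusted p = 0.00638) and -1.36 (adjusted p = 0.0185), but not in OH at -0.71 (adjusted p = 0.167) and -0.48 (adjusted p = 0.403). Tbx3, a T-box transcription factor, was the only gene of the neuronal, glial and development lists that passed between OH and C, in middle intestine, where its mean ratio was -0.29 ± 0.47 (SD, n = 4) in C and 0.72 ± 0.25 in OH, a difference of 1.01 (SE 0.20, adjusted p = 0.0477). Of all probes, 0.368% passed in this comparison, in which treatment cannot be told apart from slide or scan day. The call lay close to the threshold, and whether it holds without single arrays was not tested.

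The promoters of the 9 genes were searched because the genes move together from array to array. RefSeq promoter sequences of the GRCr8 assembly, 250 bases before to 50 after the start, were held for 8 of the 9 genes. On both strands, the full cAMP response element TGACGTCA was present in Nos1 alone of the 8 and in 1.83% of all 33469 promoters. Its first part TGACGT, which the full element contains, was present in Vip and Nos1 and in 7.94% of all promoters, and the shorter TGACG in Vip, Tac1, Gal and Nos1 and in 21.2%. CAGCACC, a piece of the element bound by the repressor REST, was present in Tac1 and Elavl4 and in 6.78%, while CAATTA and TAATTGA were in none of the 8, and in 8.2% and 2.14% of all promoters. For each of the 4 transmitter genes 1 match is shown, in the sense direction of each gene, with the motif in capitals.
Vip, 97 bases before the start, chr1:44470367-44470404, plus strand: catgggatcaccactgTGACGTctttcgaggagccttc
Nos1, 9 bases before the start, chr12:44371838-44371862, minus strand: gcagatgacgccaagtTGACGTCAa
Gal, 63 bases before the start, chr1:210084615-210084651, minus strand: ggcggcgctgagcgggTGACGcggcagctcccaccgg
Tac1, 206 bases before the start, chr4:36645361-36645397, plus strand: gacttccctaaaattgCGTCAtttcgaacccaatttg
The first 3 share the motif on the sense strand, and Tac1 holds it on the other strand. Nos1 also held TGACGT 119 bases before the start, which is not shown, and TGACG 20 bases before it, in lower case within the Nos1 line. A match of letters is a description of the window and does not show that a factor binds there.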

How the data were processed

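The authors hybridized 16 two-colour arrays and deposited, per array, scanner output with the intensity and local background of each spot in Cy5 and Cy3 and the processed intensity after background subtraction and Lowess normalization. The file headers name Agilent Feature Extraction 10.10.1.1, the study's notes 10.7.3.1. A series-wide table of Cy5 to Cy3 log10 ratios, deposited by the authors as well, served as an alternative, and each of its columns was matched to an array.

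The log2 ratio of the processed signals was taken per spot, without controls and outliers, and spots of a probe were averaged. A probe was kept if all 4 arrays of at least 1 group had it well above background in Cy5 and every group had at least 3 values, which removed 9193 of 30367 probes. A probe counted as well above background on an array where at least 0.5 of its spots were. The ratios were fitted in limma 3.58.1 under R 4.3.3 with 1 mean per group, the 4 groups sharing 1 estimate of the spread, without a block. The Benjamini-Hochberg adjustment ran over 21174 probes, with a threshold of 0.05. The fit was tested on simulated data. The number of arrays limits the precision. A bound sets the mean of the brighter group against the lowest signal well above background on each array of the dimmer group, or the probe's own signal where higher, on separately normalized channels that are open to dye bias. Where the probe's own signal was higher on every such array, as for Vsnl1 and for Nos1 in C, the value is the plain ratio of the normalized signals. The brightest probe is the one with the highest mean Cy5 signal.

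All 9 genes are named with every probe. Of each marker list, up to 4 genes with the largest difference among those that passed between the C tissues with the same direction in OH were eligible to be named, with any that passed between OH and C, and Tacr1 was named after its values were seen. Likeness was ranked over genes with 1 probe each. The 9 genes, the lists and the tests were chosen with earlier results of these data known. Symbols and positions are those of the array design (rn4). The ontology and network analyses, the real-time PCR and the other assays were not analysed here.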

Additional observations from a re-analysis of the deposited data

Results flagged for a closer look

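In 3 of 56 groups of 4 arrays, 1 array lay far from the rest, with a gap to its nearest neighbour, as a share of the group's range, above Dixon's critical value for 4 samples. Chance flags about 1 in 20 groups, or 2.8 of these 56. The Vip ratio of C middle intestine replicate 1 was 2.83 against 2.06 to 2.13 on the other arrays, a share of 0.914. The Gal ratio of C stomach replicate 4 at A_64_P091940 was -0.67 against -1.08 to -1.03, a share of 0.865. The Stmn2 ratio of C stomach replicate 4 at A_44_P496061 was -0.76 against -1.37 to -1.32, a share of 0.92.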

How the results depend on the processing

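The counts of probes called were recomputed under other background corrections, scalings, filters, tests and array sets. Between the C tissues the count of 12 ranged from 8 to 13, and from 9 to 13 when 1 array was left out. Between the OH tissues the count of 6 ranged from 3 to 8, and from 3 to 8 when 1 array was left out. It was 3 by one-way ANOVA with Tukey's HSD, by which the calls of Uchl1 and Stmn2 between the C tissues and of Vip, Elavl4 and Prph between the OH tissues were lost. It was also 3 without C stomach replicate 2 and OH middle intestine replicate 4 together, an alternative chosen after seeing the data. Between OH and C the count was 0 in both tissues under all alternatives run, except for 1 in middle intestine with an unadjusted p, and the difference between the tissues likewise gave 0, or 1 with an unadjusted p. With the replicate number as a replicate block, the counts were 13 and 8 between the C and the OH tissues, and 0 between OH and C in stomach, in middle intestine and for the difference, and Tac1 passed between the OH tissues (adjusted p = 0.0488). The numbers are not known to mark the same rat. Deviations of same-numbered stomach and intestine arrays had r over 0.1 in 3 of 4 C pairs, the lowest at 0.0581, and in 2 of 4 OH pairs. Pairs with unlike numbers had r from -0.16 to 0.08 in C and from -0.34 to 0.30 in OH. These values do not settle whether the same number marks the same rat, and the samples were not taken as paired.

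For single genes, values changed sign where they were near 0 and not called. With Cy5 alone, Ret between the C tissues was 0.10, and OH minus C was -0.16 for Nos1 and 0.12 for Elavl4 in stomach, and 0.64 for Ret, 0.0108 for Uchl1 and -0.19 for Stmn2 in middle intestine. In middle intestine, Ret was 0.0484 with array weights, and Stmn2 was -0.17 without the pair of arrays named above. When 1 array was left out, Ret between the C tissues ran from -0.53 to 0.16, OH minus C in stomach from -0.11 to 0.30 for Nos1 and from -0.20 to 0.12 for Elavl4, and the difference between the tissues for Elavl4 from -0.14 to 0.49. OH minus C in middle intestine then ran from -0.38 to 0.0262 for Gal, -0.54 to 0.0888 for Elavl4, -0.32 to 0.37 for Ret, -0.37 to 0.00035 for Uchl1, -0.22 to 0.19 for Prph and -0.17 to 0.26 for Stmn2. The cause of these changes was not tested. Normalizing the channels between arrays by Aquantile leaves the ratios as they are by construction. The Nos1 signals were close to background in the intestine, which limits the values of that gene.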
